A study of Mus musculus with 8 samples.

Results

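The SLC25 genes encode the mitochondrial carrier family, and those studied here were chosen by name and depth alone. Every row whose Ensembl ID carries a mouse symbol of the form Slc25a plus a number was taken, provided that it held at least 10 counts in at least 4 of the 8 libraries. Of 47 such symbols among 55414 rows, 41 met the rule and all 41 were tested among 14004 genes. Slc25a18, Slc25a27, Slc25a34, Slc25a41, Slc25a48 and Slc25a54 fell short of it, Slc25a34 with 10 counts in 2 libraries and the other 5 genes in 0. At the other edge, Slc25a29 and Slc25a47 were kept with 10 counts in 6 libraries each. The libraries came from red pulp macrophages, the splenic macrophages that take up worn-out erythrocytes and return the iron, sorted from wild-type C57BL/6J mice. The CLP group (4 libraries) was taken 2 h after cecal ligation and puncture, a surgical model of sepsis, and the Sham group (4 libraries) 2 h after the control operation. By its title the study concerns hemolysis in sepsis, and CLP against sham is its only comparison. The labels do not tie libraries to separate mice, so each p-value reflects only how far these 8 samples scatter, and that scatter may be technical.

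Carriers of this family sit in the inner mitochondrial membrane and exchange metabolites, nucleotides, cofactors and iron between the cytosol and the matrix. They share a fold built of repeated membrane-spanning units, are made in the cytosol and are inserted through the TIM22 complex. In macrophages they link the citric acid cycle to cytosolic lipid synthesis, export ATP, and bring in the iron used for heme and iron-sulfur clusters. The family name does not fix the place: the product of Slc25a17 is peroxisomal and that of Slc25a46 lies in the outer mitochondrial membrane.

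Total counts were 15392992 to 25665633 per library. Values are CPM, reads per 10 to the power 6 of library size, after TMM scaling, in which 1 CPM stands for 15.1 to 27.6 reads. All 16 red pulp macrophage markers were detected in every library. They summed to 53066 to 60790 CPM in CLP and 45135 to 55068 CPM in sham. Of the 16, 9 were called higher after CLP and 2 lower (7 and 2 without Sham replicate 4). Among all genes tested 19.8% were called higher and 23.5% lower (19.0% and 19.4% without Sham replicate 4). Neutrophil markers summed to 103 to 176 CPM in CLP and 77.5 to 94.1 CPM in sham, without overlap. Of these, 3 of the 4 tested were higher (3 of 7, with 1 lower, without Sham replicate 4). Most of the sum was Csf3r, at 92.0 to 148 CPM in CLP and 73.6 to 86.2 CPM in sham. Each other neutrophil marker was at 16.4 CPM or less in every library. Platelet markers summed to 75.4 to 105 CPM and 68.6 to 85.8 CPM, with 4 of 7 higher. Most of that sum was Clec1b, at 52.1 to 84.0 CPM in CLP and 60.6 to 77.8 CPM in sham, which overlap. The part of neutrophils or platelets in the carriers' values was not tested. Sham replicate 4 stood apart in other markers. Its 15 erythroid markers summed to 1852 CPM against 380 to 604 CPM in the other sham libraries and 815 to 1361 CPM in CLP. Of these 15 markers, 10 were highest in that library. Its 12 dividing cell markers summed to 821 CPM against 146 to 388 CPM in the other 7 libraries. Carriers whose call changed without Sham replicate 4 are named below. Bulk libraries cannot tell fewer cells of a type from less RNA per cell.

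After CLP, 9 of the 41 carriers were higher and 11 were lower in edgeR's quasi-likelihood test (Benjamini-Hochberg adjusted p under 0.05 over all genes), and 21 did not pass. Among all genes tested 43.3% were called, 19.8% as higher and 23.5% as lower, so the carriers' shares (48.8%, 22.0% and 26.8%) lay near the background. Their median log2 fold change (CLP minus sham) was -0.09, and that of all genes was -0.05. Changes of 2-fold or more were called in 2 carriers, Slc25a33 upward and Slc25a14 downward, a share of 4.88% beside 14.7% of all genes. The CPM ranges of CLP and sham were apart for 19 carriers (7 higher and 12 lower), or 46.3%, where 41.5% of all genes did so. 

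With 1 library left out, 8 to 10 carriers were higher and 7 to 10 were lower, and the share of all genes called moved too. Leaving out CLP replicate 1, 2, 3 or 4 gave 37.6%, 41.1%, 43.7% or 35.5% of all genes called, with 17.6%, 18.9%, 19.5% or 16.1% higher and 20.0%, 22.1%, 24.2% or 19.3% lower. Leaving out Sham replicate 1, 2, 3 or 4 gave 40.0%, 36.7%, 38.3% or 38.4%, with 20.0%, 18.1%, 18.9% or 19.0% higher and 20.1%, 18.6%, 19.4% or 19.4% lower. The 7 lower carriers came without CLP replicate 4 and, separately, without Sham replicate 3. With the replicate number as a block, 10 carriers were higher and 8 lower where 43.5% of all genes were called, 20.0% higher and 23.5% lower. DESeq2 size factors gave 10 higher and 10 lower carriers (all genes 43.4%, 21.8% and 21.6%), as did the DESeq2 test (45.1%, 22.6% and 22.5%). The limma-voom test gave 9 and 10 (43.7%, 19.9% and 23.8%). With no filter on low counts 8 and 9 carriers were called (21.9%, 9.36% and 12.6% of a longer list of genes), and with the carriers' own count rule as the filter 9 and 11 (43.3%, 19.8% and 23.5%).

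The balance of rises and falls depended on how libraries were scaled. With plain library totals in place of TMM factors, fold changes of all genes shifted by a median of -0.32. Then 1 carrier was higher, Slc25a33, and 20 were lower, against a background of 9.18% and 46.0% (55.1% in all). All 11 lower carriers stayed lower under that scaling, and 9 more were called lower: Slc25a11, Slc25a15, Slc25a29, Slc25a30, Slc25a31, Slc25a35, Slc25a40, Slc25a44 and Slc25a53. Of the 9 higher ones, 8 kept a positive sign but 1 kept its call. Statements below that a carrier rose, other than for Slc25a33, or that one of these 9 did not pass, are therefore relative to TMM scaling.

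**Figure D1:**
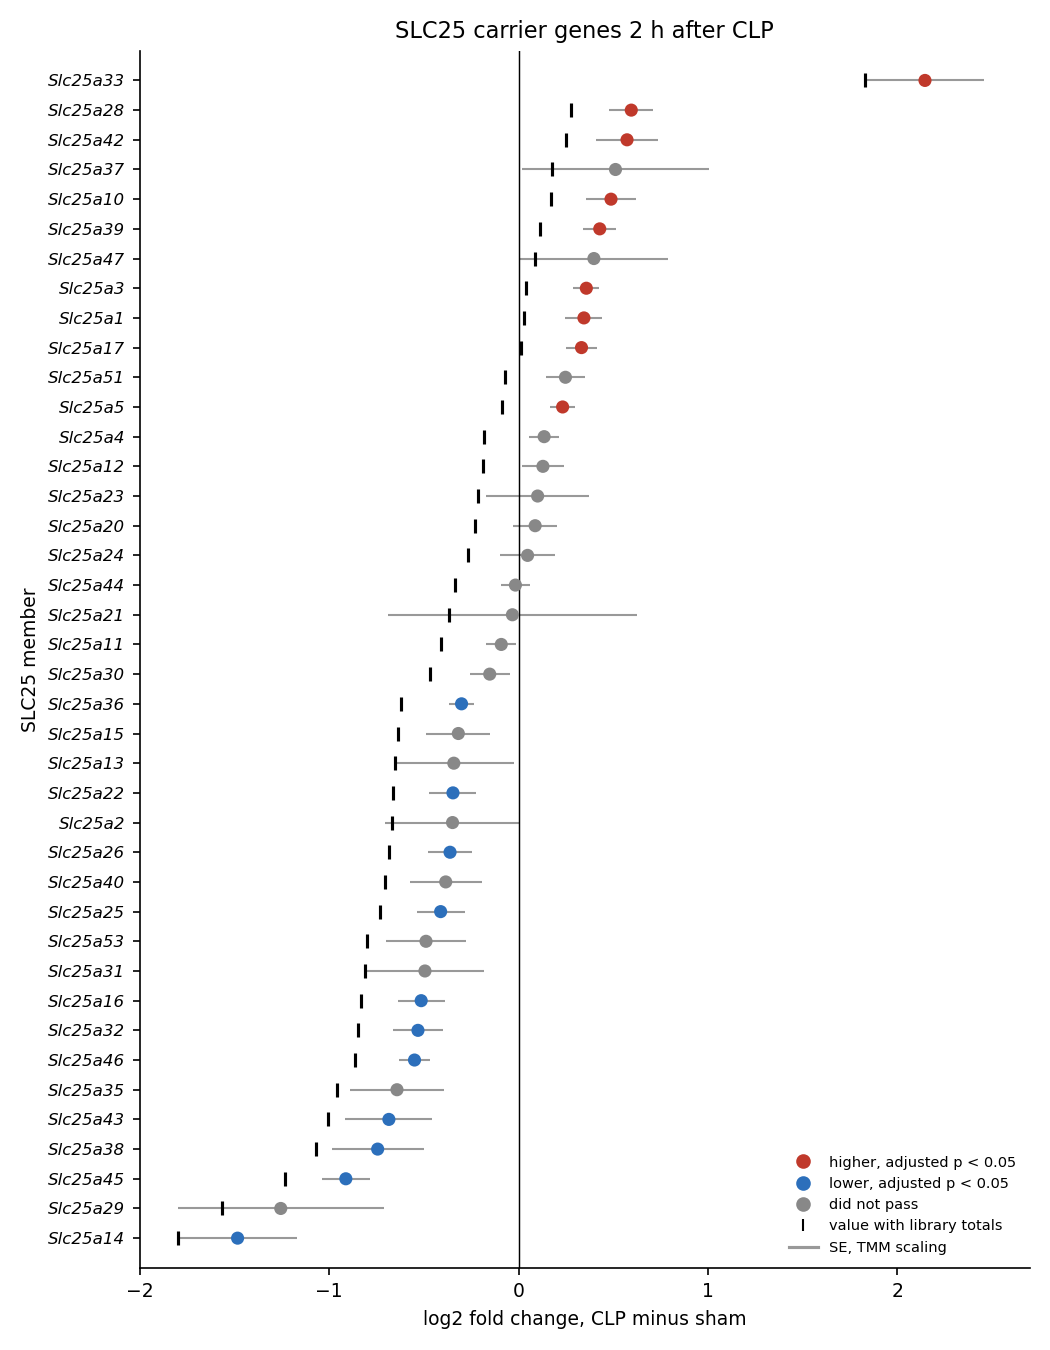
Log2 fold change (CLP minus sham, x axis) of 40 of the 41 SLC25 carriers (y axis), with points for the edgeR fit with TMM scaling, grey bars for its SE, colour for the call at an adjusted p under 0.05 and black ticks for the fit with library totals. Slc25a33 stands alone at 2.15, the other values lie between -1.48 and 0.60, and the ticks lie to the left of the points.

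The upstream sequences of 3 carriers are shown because the results turn on them: Slc25a33 has the highest fold change, Slc25a36 is its partner in pyrimidine nucleotide transport and moved the other way, and Slc25a28 is the iron carrier that rose. Each is the 250 bases before the RefSeq start of the gene in build GRCm38.p6, an older build than that of the counts, read on the minus strand. The windows are chr4:149774268-149774517, chr9:97111042-97111291 and chr19:43674882-43675131 in that order. Capitals mark the E-box CACGTG, the GC box GGGCGG and the CCAAT box, on either strand.
Slc25a33: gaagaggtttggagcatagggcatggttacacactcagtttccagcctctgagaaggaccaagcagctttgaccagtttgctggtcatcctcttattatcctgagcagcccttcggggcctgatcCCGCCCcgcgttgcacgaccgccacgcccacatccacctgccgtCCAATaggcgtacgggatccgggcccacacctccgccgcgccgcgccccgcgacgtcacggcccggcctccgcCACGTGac
Slc25a36: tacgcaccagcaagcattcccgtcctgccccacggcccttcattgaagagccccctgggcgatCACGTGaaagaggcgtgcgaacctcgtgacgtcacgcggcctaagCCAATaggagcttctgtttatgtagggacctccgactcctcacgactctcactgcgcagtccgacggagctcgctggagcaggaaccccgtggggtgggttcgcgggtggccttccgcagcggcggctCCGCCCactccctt
Slc25a28: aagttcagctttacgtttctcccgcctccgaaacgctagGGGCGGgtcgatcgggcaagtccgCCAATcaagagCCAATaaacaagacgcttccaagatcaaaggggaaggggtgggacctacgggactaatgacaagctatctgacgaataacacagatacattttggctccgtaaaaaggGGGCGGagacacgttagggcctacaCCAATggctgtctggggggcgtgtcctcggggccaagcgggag

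Slc25a33 and Slc25a36 each hold 1 E-box, starting 8 and 187 bases before the start, although their RNA moved in opposite directions. RefSeq windows matched 32 of the 41 carriers, with 42 windows. The E-box was in 19.0% of these windows and in 6.02% of all 32851 windows of the same length. It was present in 2 of 9 matched higher carriers, 2 of 8 lower ones and 3 of 15 that did not pass. The GC box was in 71.4% of the carriers' windows and 32.7% of all windows, and the CCAAT box (CCAAT or ATTGG) in 47.6% and 33.8%. GC boxes were found in 8 of 9 higher, 5 of 8 lower and 10 of 15 other carriers. The carriers had to pass the count rule, while the set of all windows was not limited to genes detected here, so the 2 sets are unlike. A match to these letters is a description and shows no binding.

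Per base of transcript, a few carriers made up most of the family's RNA. Compared as CPM per kilobase of merged exons, Slc25a5, which encodes the main ADP/ATP exchanger of dividing and immune cells, led with a mean of 143 over the 8 libraries. Next came the NAD carrier gene Slc25a51 at 48.4, the phosphate carrier gene Slc25a3 at 35.7 and the iron carrier gene Slc25a37 at 33.2. Slc25a39, needed for mitochondrial glutathione import, followed at 31.9 and the oxoglutarate carrier gene Slc25a11 at 31.1. These 6 genes held 62.6% of the summed CPM per kilobase of all 41, and 11 carriers were below 1 CPM per kilobase. Neighbours from the third to the sixth place differ by less than the spread of Slc25a37 between libraries. Summed over all carriers, CPM was 1605 to 1867 in sham and 1823 to 2011 in CLP, which overlap. Without Slc25a37 the sums were 1497 to 1561 in sham and 1652 to 1698 in CLP.

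Iron enters the matrix through the mitoferrins, encoded by Slc25a37 (mitoferrin-1, the form on which developing red cells depend) and Slc25a28 (mitoferrin-2, more widely expressed). In the CLP replicates, taken here and below in order from 1 to 4, Slc25a28 was at 26.1, 24.4, 31.4 and 30.5 CPM. The sham replicates had 18.5, 17.6, 21.4 and 16.9 CPM. Each CLP library lay above each sham library, and the gene rose 1.51-fold (log2 fold change 0.60, SE 0.12, adjusted p = 0.00162 in edgeR). This call held without any single library (adjusted p up to 0.00721) and was lost with library totals (0.28, adjusted p = 0.0577).

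Slc25a37 was more abundant and far more uneven. It stood at 221, 234, 313 and 171 CPM in CLP and at 74.6, 108, 127 and 349 CPM in sham. Sham replicate 4 was the highest of all 8 libraries, while the other 3 sham libraries were below every CLP library. With all libraries the log2 fold change was 0.51 (SE 0.49) and did not pass (adjusted p = 0.447 in edgeR). Without Sham replicate 4 it was 1.21 and the gene was called higher (adjusted p = 0.00309), where 19.0% of all genes were.

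The sum of erythroid marker RNA moved with this gene. The summed CPM of the 15 erythroid markers was 1129, 1209, 1361 and 815 in CLP and 380, 522, 604 and 1852 in sham, and its order over the 8 libraries was the same as that of Slc25a37. The level of Slc25a37 was 19.4% to 23.0% of that sum in CLP and 18.9% to 21.0% in sham. No erythroid marker was at 0 in any library. Slc4a1, the red cell anion exchanger and the most abundant of these markers, was at 125 to 275 CPM in Sham replicates 1 to 3 and at 902 CPM in Sham replicate 4. Alas2 was at 255 to 520 CPM in CLP and 171 CPM in Sham replicate 4. Hbb-bs was at 106 to 200 and 74.1 CPM, and Hbb-bt at 19.9 to 35.2 and 17.2 CPM. Each of these markers was lower in Sham replicate 4 than in every CLP library, while 10 of the 15 were highest in Sham replicate 4. Of the 13 erythroid markers tested, 3 were called higher and 1 lower with all libraries, and 6 higher and 1 lower without Sham replicate 4. The shares of all genes were 19.8% and 23.5%, and 19.0% and 19.4% without Sham replicate 4. These are bulk libraries, and the part of erythroid RNA in the level of Slc25a37 was not tested.

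**Figure D2:**
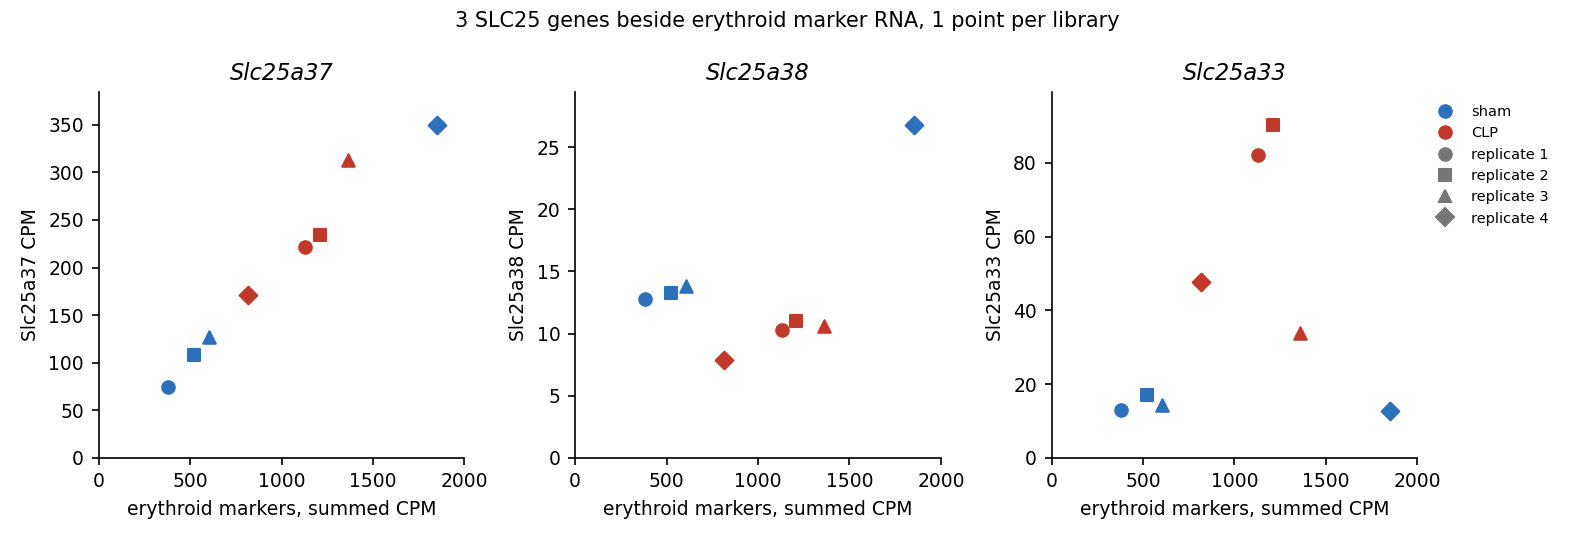
CPM of Slc25a37, Slc25a38 and Slc25a33 (y axes) against the summed CPM of 15 erythroid markers (x axes), 1 point per library, coloured by group and shaped by replicate number. Slc25a37 lies in the order of the erythroid sum in all 8 libraries; Slc25a33 is at 12.7 CPM in Sham replicate 4, where that sum is highest.

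Slc25a38, whose product supplies glycine for the first step of heme synthesis, was also highest in Sham replicate 4. It was at 10.2, 11.04, 10.6 and 7.87 CPM in CLP and 12.8, 13.3, 13.8 and 26.8 CPM in sham. The groups did not overlap, and the gene fell 1.68-fold (log2 fold change -0.74, SE 0.24, adjusted p = 0.0304). Without Sham replicate 4 the log2 fold change was -0.39 and the call was lost (adjusted p = 0.0512). It was also lost without CLP replicate 1, 3 or 4 (up to 0.0851) and in limma-voom (0.0546). In each CLP library Slc25a38 was below every sham library, and the part of erythroid RNA in its level was not tested. Slc25a21, a carrier of oxoadipate and oxoglutarate, shared the high value of Sham replicate 4, at 5.06 CPM against 0.757 to 1.12 CPM in the other sham libraries, and did not pass (log2 fold change -0.03, adjusted p = 0.974). Without that library its log2 fold change was 1.02, which did not pass either (adjusted p = 0.0928).

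Other genes of mitochondrial iron and heme handling had 4 of 26 tested higher and 4 lower (6 and 4 without Sham replicate 4, 2 and 11 with library totals). The shares of all genes were 19.8% and 23.5% (19.0% and 19.4% without Sham replicate 4, 9.18% and 46.0% with library totals). Iscu, the scaffold on which iron-sulfur clusters are built, rose from 47.6 ± 10.6 to 89.5 ± 5.0 CPM (SD, n = 4 each; log2 fold change 0.91, adjusted p = 0.000424 in edgeR). Alas2, the erythroid enzyme that starts heme synthesis and also 1 of the 15 erythroid markers, rose 2.96-fold from 111 ± 40 CPM (adjusted p = 0.00467). Its non-erythroid counterpart Alas1 fell (log2 fold change -0.63, adjusted p = 0.000308), as did Clpx, Fdxr and Iba57. Hspa9, the mitochondrial chaperone of cluster transfer, and Isca1 were the remaining higher genes. Alas1 and the 5 genes after it are outside the naming rule and were chosen after their values were seen.

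Pyrimidine nucleotides reach the matrix, where they feed mitochondrial DNA and RNA synthesis, through the products of Slc25a33 and Slc25a36. Slc25a33 had the highest log2 fold change of the family, 2.15 (SE 0.31), a 4.43-fold rise with adjusted p = 0.00074. It stood at 82.0, 90.2, 33.9 and 47.6 CPM in CLP and at 13.03, 17.1, 14.4 and 12.7 CPM in sham. All CLP libraries were above all sham libraries, and CLP replicates 1 and 2 were higher than 3 and 4. The call held in each of 15 alternative fits, with log2 fold changes of 1.83 to 2.36. An antisense transcript that shares 14.9% of its exon bases was at 0.0128 CPM.

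Slc25a36, the partner with more counts, moved the other way. Its values were 107, 112, 117 and 110 CPM in CLP and 128, 142, 139 and 142 CPM in sham, without overlap. The fall was 1.23-fold (log2 fold change -0.30, SE 0.07, adjusted p = 0.00337) and held in all 15 alternatives. Since both genes are counted in the same library, their ratio does not depend on scaling. Slc25a33 had 0.0900 to 0.120 counts per count of Slc25a36 in sham and 0.289 to 0.803 in CLP, a 5.08-fold higher ratio. The exons of Slc25a36 span 9594 bases and those of Slc25a33 span 1887. Per kilobase, Slc25a36 had the higher mean in sham (14.4 against 7.59 CPM) and Slc25a33 in CLP (33.6 against 11.6 CPM).

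Such ratios were computed for 9 pairs of carriers with like substrates, from log2 counts with 0.5 added. For 5 of the pairs the groups did not overlap, each with p = 0.0286 in an exact two-sided permutation test, the lowest value reachable with 70 ways to split 8 libraries. After Benjamini-Hochberg adjustment over the 9 pairs these came to 0.0514, just above the threshold. Besides the pyrimidine pair they were Slc25a39 over Slc25a40 (glutathione, 1.78-fold higher), Slc25a16 over Slc25a42 (coenzyme A, 0.473 of the sham ratio) and Slc25a14 over Slc25a30 (uncoupling-protein-like, 0.413). The fifth, Slc25a4 over Slc25a5 (ADP/ATP), was 0.936 of the sham ratio. For the other 4 pairs the groups overlapped, and the mitoferrin ratio had the highest exact permutation p, 0.857 before and after adjustment. Its log2 difference (CLP minus sham) was 0.15 with all libraries and 0.64 without Sham replicate 4, with overlap in both. The ratio of Slc25a12 to Slc25a13 no longer overlapped without Sham replicate 4 or without CLP replicate 2. That of Slc25a10 to Slc25a11 no longer did without CLP replicate 2 or Sham replicate 3, and that of Slc25a24 to Slc25a25 without Sham replicate 1.

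**Figure D3:**
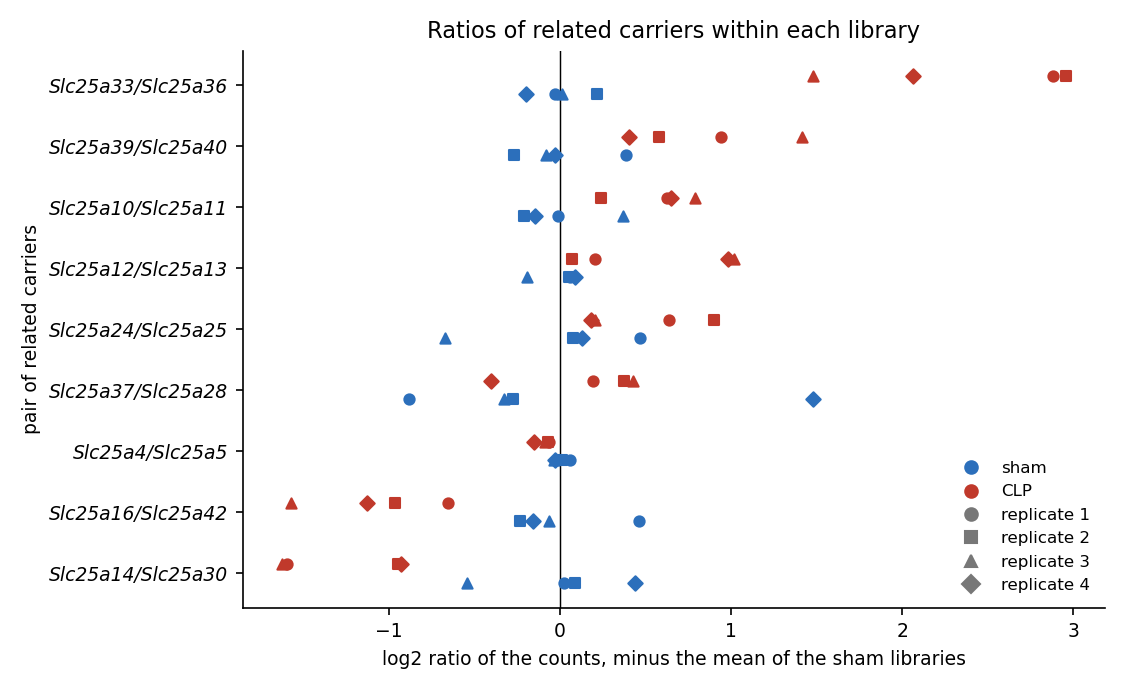
Log2 ratio of the counts of 2 related carriers within each library, minus the mean of the 4 sham libraries (x axis), for 9 pairs (y axis), coloured by group and shaped by replicate number. In 5 pairs the CLP and sham points do not overlap, and the shift is largest for Slc25a33 over Slc25a36.

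Carriers of phosphate and adenine nucleotides serve oxidative phosphorylation. Of 7 tested 2 were higher and 1 lower, beside 19.8% and 23.5% of all genes. Slc25a3, which brings in phosphate for the ATP synthase and copper for cytochrome oxidase, was at 224, 214, 214 and 238 CPM in CLP and 186, 176, 168 and 165 CPM in sham. The groups did not overlap and it rose 1.28-fold (log2 fold change 0.36, SE 0.07, adjusted p = 0.00165). Slc25a5 stood at 263, 253, 242 and 257 CPM in CLP against 233, 213, 203 and 216 CPM in sham, a rise of 1.18-fold (adjusted p = 0.0165) without overlap. That call was lost with no filter on low counts, and with library totals its sign turned (log2 fold change -0.09, adjusted p = 0.263). Slc25a4, the ADP/ATP exchanger of heart and muscle, was at 75.6, 72.5, 68.2 and 69.7 CPM in CLP and 72.8, 64.4, 59.5 and 63.6 CPM in sham. These overlap, and it did not pass (adjusted p = 0.19). A row for a pseudogene of Slc25a5 held at most 1 count in a library.

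The lower member was Slc25a25, a calcium-regulated carrier that swaps ATP-Mg for phosphate, at 21.5, 17.8, 25.0 and 22.8 CPM in CLP and 25.0, 27.96, 34.1 and 28.99 CPM in sham. The ranges met at about 25 CPM, the log2 fold change was -0.41 (SE 0.13, adjusted p = 0.0217), and dropping CLP replicate 1, CLP replicate 2 or Sham replicate 3 ended the call (0.0860 at most). Its relatives Slc25a24 and Slc25a23 had log2 fold changes of 0.05 and 0.10, and Slc25a31, the germline ADP/ATP exchanger, -0.49, none called.

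Among 4 carriers of citric acid cycle acids, 2 were higher and 0 lower, beside 19.8% and 23.5% of all genes. Slc25a1 exports citrate, the source of cytosolic acetyl-CoA. Its levels were 51.4, 46.4, 47.1 and 43.3 CPM in CLP and 42.7, 37.1, 36.4 and 31.9 CPM in sham. All CLP libraries exceeded all sham libraries, by 1.27-fold on average (log2 fold change 0.35, SE 0.10, adjusted p = 0.0145). Slc25a10, the dicarboxylate carrier gene that trades malate and succinate for phosphate, was at 39.3, 30.5, 42.9 and 39.2 CPM in CLP and 29.8, 23.9, 31.2 and 23.3 CPM in sham. The lowest CLP value lay below the highest sham value, and the gene rose 1.40-fold (SE of the log2 fold change 0.13, adjusted p = 0.0106). Slc25a11, of the malate-aspartate shuttle, was at 64.3, 65.3, 62.8 and 63.1 CPM in CLP. Its sham values, 75.96, 69.9, 61.2 and 65.04 CPM, overlapped these, and it did not pass (adjusted p = 0.38). It shares 8.92% of its exon bases with Rnf167 on the other strand, itself at 43.3 CPM, and the strand setting of the counts is not given in the sources used here.

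Cofactor and nucleotide carriers had 4 of 11 members higher and 4 lower, beside 19.8% and 23.5% of all genes. Slc25a39 was at 101, 98.9, 111 and 92.3 CPM in CLP and 83.3, 68.3, 68.7 and 79.0 CPM in sham, again without overlap, and rose 1.35-fold (log2 fold change 0.43, SE 0.09, adjusted p = 0.00236). Slc25a40, its paralog, was at 4.87, 6.14, 3.84 and 6.49 CPM in CLP. In sham it was at 5.93, 7.66, 6.76 and 7.48 CPM, an overlapping range, and it did not pass (adjusted p = 0.127). With 5 in place of 0.5 added to the counts, the ratio of this pair overlapped between the groups.

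Slc25a42, which carries coenzyme A into the matrix, was at 11.3, 14.4, 17.05 and 16.9 CPM in CLP and 8.07, 11.9, 10.4 and 9.74 CPM in sham. The lowest CLP value fell inside the sham range; the gene rose 1.49-fold (SE of the log2 fold change 0.16, adjusted p = 0.0156), a call lost without CLP replicate 4 (0.0509). Slc25a16, placed with it as a coenzyme A related carrier, fell 1.43-fold. Its values, 13.5, 13.9, 10.8 and 14.6 CPM in CLP and 21.0, 19.2, 18.8 and 16.5 CPM in sham, did not overlap (log2 fold change -0.51, SE 0.12, adjusted p = 0.00626).

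Slc25a17, the peroxisomal member, was even across CLP libraries at 27.6, 28.9, 27.6 and 27.5 CPM and lower in sham at 21.1, 21.5, 24.4 and 21.8 CPM. The rise was 1.26-fold (log2 fold change 0.33, SE 0.08, adjusted p = 0.008). Slc25a32, required for folate and FAD supply, fell 1.45-fold, from 20.01, 14.4, 15.6 and 17.2 CPM in sham to 10.3, 12.2, 11.2 and 12.8 CPM in CLP. These ranges were apart (log2 fold change -0.53, SE 0.13, adjusted p = 0.00672). Slc25a51, the NAD carrier gene, had 263, 257, 352 and 285 CPM in CLP and 226, 233, 269 and 247 CPM in sham, which overlap, and did not pass (log2 fold change 0.25, SE 0.10, adjusted p = 0.0777). It was called higher with DESeq2 (either its test or its size factors) and without CLP replicate 2 or Sham replicate 3, with the smallest adjusted p without a library at 0.0371. The fourth lower gene, Slc25a26, imports S-adenosylmethionine (log2 fold change -0.36, adjusted p = 0.0278; 0.115 at most when CLP replicate 3 or 4 or Sham replicate 2, 3 or 4 was dropped).

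**Figure D4:**
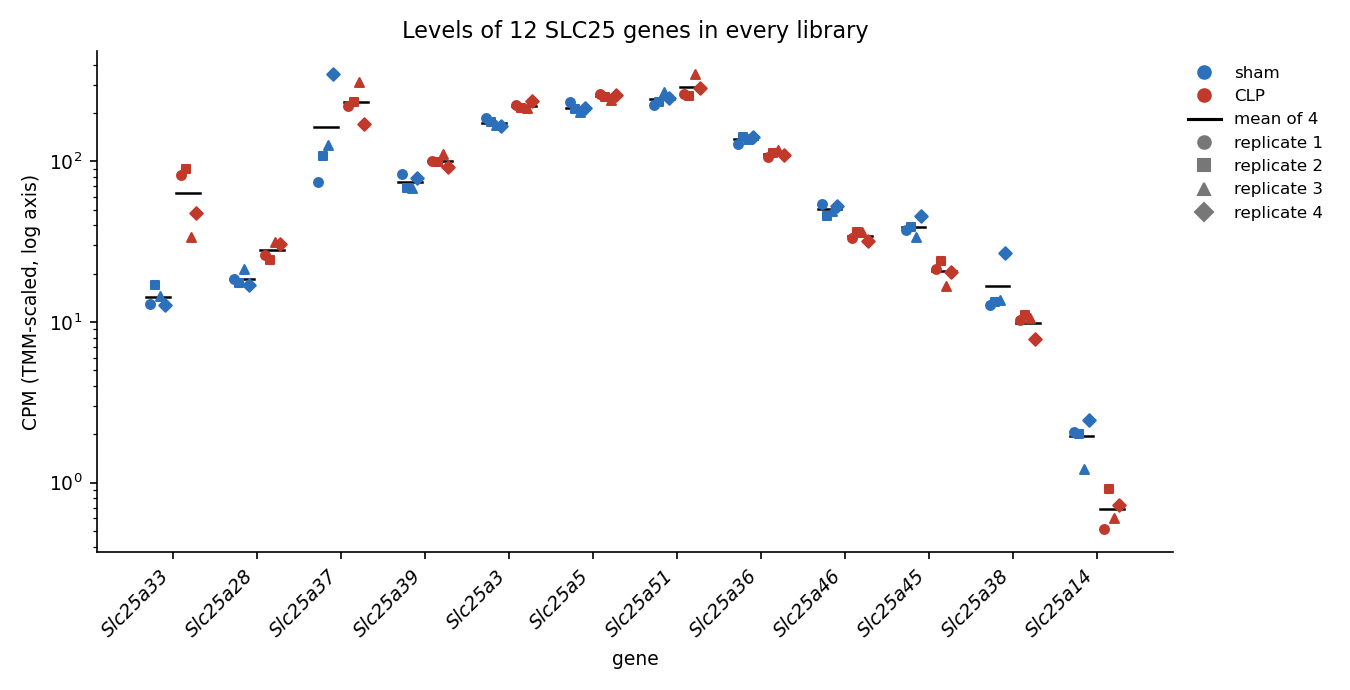
CPM (TMM-scaled, log axis) of 12 SLC25 genes in each of the 4 sham (blue) and 4 CLP (red) libraries, with marker shape for the replicate number and a black line for the mean of 4. Slc25a33, Slc25a28, Slc25a39, Slc25a3 and Slc25a5 are higher in all CLP libraries than in any sham library, Slc25a36, Slc25a46, Slc25a45, Slc25a38 and Slc25a14 are lower in all of them, and Slc25a37 and Slc25a51 overlap.

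Amino acid carriers had 0 of 8 members higher and 2 lower, beside 19.8% and 23.5% of all genes. The 2 were Slc25a38 (above) and the glutamate carrier gene Slc25a22. The latter fell by 0.35 on the log2 scale (SE 0.12, adjusted p = 0.0416), and its call was lost without any single library other than CLP replicate 3 (adjusted p up to 0.115). Slc25a12 and Slc25a13, the aspartate/glutamate carrier genes aralar and citrin, had 0.13 and -0.34, neither called. Slc25a44, which imports branched-chain amino acids, had a log2 fold change of -0.02 (SE 0.08) with TMM scaling and was called lower with library totals (-0.33, adjusted p = 0.0037). The ornithine carrier genes Slc25a15 and Slc25a2 and the basic amino acid carrier gene Slc25a29 had negative values, -0.32, -0.35 and -1.26, that did not pass. Slc25a29 rests on 2 to 34 reads per library. The single carrier of acylcarnitines, Slc25a20, on which fatty acid oxidation depends, did not pass (log2 fold change 0.09, adjusted p = 0.578).

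Of the 8 uncoupling-protein-like, outer membrane and uncharacterised members 0 were higher and 4 were lower, beside 19.8% and 23.5% of all genes. Slc25a45 fell 1.88-fold, from 37.3, 38.8, 33.7 and 45.7 CPM in sham to 21.4, 23.98, 16.9 and 20.4 CPM in CLP. No library of one group reached the other (log2 fold change -0.91, SE 0.13, adjusted p = 0.000177, the smallest of the family). Slc25a46, whose product acts in mitochondrial fusion and fission, was at 33.2, 36.2, 36.5 and 32.0 CPM in CLP and 54.4, 45.8, 49.1 and 52.7 CPM in sham. It too was lower in every CLP library (log2 fold change -0.55, SE 0.08, adjusted p = 0.000359).

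Slc25a14, which encodes a brain-type uncoupling-like protein, was a rare transcript here. It had 8, 18, 11 and 11 counts in CLP and 57, 49, 21 and 60 in sham, or 0.691 ± 0.177 and 1.94 ± 0.52 CPM (SD, n = 4 each). The groups were apart and the fall was 2.80-fold (log2 fold change -1.48, SE 0.32, adjusted p = 0.0029 in edgeR), with all 15 alternatives calling it. Its relative Slc25a30 was at 22.3, 24.6, 26.3 and 19.6 CPM in CLP. The sham libraries had 27.8, 25.9, 24.7 and 24.9 CPM, which overlap, and it did not pass (adjusted p = 0.271).

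Slc25a43 fell from 2.17, 2.35, 2.56 and 3.29 CPM in sham to 1.86, 1.58, 1.48 and 1.52 CPM in CLP (log2 fold change -0.68, SE 0.23, adjusted p = 0.032). The ranges were apart, but dropping CLP replicate 2, 3 or 4 or Sham replicate 2, 3 or 4 ended the call, with 0.119 as the highest adjusted p. Slc25a35, Slc25a53 and Slc25a47 had log2 fold changes of -0.64, -0.49 and 0.40 and did not pass. Slc25a35 shares 31.3% of its exon bases with Rangrf on the other strand. Without Sham replicate 4, Slc25a53 was called lower (adjusted p = 0.0272).

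Genes that insert or accompany these carriers were compared from lists of named genes. Of 14 tested genes for the import of carrier proteins 1 was higher and 3 were lower (0 and 6 with library totals). The shares of all genes were 19.8% and 23.5% (9.18% and 46.0% with library totals). Timm29, a TIM22 subunit, fell from 23.5 ± 0.6 to 15.7 ± 1.4 CPM (SD, n = 4 each; adjusted p = 0.000595 in edgeR) and Agk, a lipid kinase that is also a TIM22 subunit, fell 1.51-fold (adjusted p = 0.0126). Tomm70a, the outer membrane receptor for carriers and the most abundant of the list, did not pass (log2 fold change 0.16, adjusted p = 0.22). Timm22, the pore itself and the third lower gene, fell by 0.53 on the log2 scale (adjusted p = 0.0116), and Tomm20 was the higher one; both were chosen after their values were seen.

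Other inner membrane transporters had 5 of 22 higher and 4 lower (0 and 11 with library totals, 3 and 3 without Sham replicate 4). The shares of all genes were 19.8% and 23.5% (9.18% and 46.0% with library totals, 19.0% and 19.4% without Sham replicate 4). Ucp2, the uncoupling protein of immune cells and a relative of these carriers under another symbol, was the most abundant with 2124 ± 199 CPM after sham surgery against 2356 ± 178 CPM after CLP (SD, n = 4 each), and did not pass (adjusted p = 0.205 in edgeR). Ucp3 fell 1.76-fold from 32.0 ± 7.8 CPM (adjusted p = 0.0141). Mpc1, a subunit of the pyruvate carrier, rose 1.36-fold (adjusted p = 0.0366).

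Markers and regulators of mitochondrial mass had 5 of 22 higher and 5 lower, near the 19.8% and 23.5% of all genes. The counts were 1 and 14 with library totals, and 4 and 5 without Sham replicate 4. Ppargc1b, a coactivator of mitochondrial gene expression, was 2.45-fold lower (adjusted p = 9.4e-06) and Polrmt, the mitochondrial RNA polymerase, 2.26-fold (adjusted p = 0.000179). Cs, citrate synthase, rose 1.14-fold (adjusted p = 0.0445). Regulators went both ways: Gabpb1 rose 2.20-fold (adjusted p = 2.53e-06 in edgeR) and Pprc1 1.63-fold (adjusted p = 0.0282). Gabpb1 and Pprc1 are outside the naming rule and were chosen after their values were seen. Beside the carriers' 9 higher and 11 lower of 41, nuclear respiratory chain subunits had 11 higher and 0 lower of 80, with a median log2 fold change of 0.15, and mitochondrial ribosomal proteins 2 higher and 26 lower of 77, with a median of -0.19. Without Sham replicate 4 the ribosomal list had 3 higher and 17 lower, beside 19.0% and 19.4% of all genes. Atp5a1, the most abundant of the chain subunits, rose 1.30-fold, Atp5b 1.33-fold and Atp5mpl 1.39-fold. Mrpl44 and Mrps31 fell 2.21-fold and 2.18-fold, and Mrpl52 rose 1.74-fold. With library totals 0 of the chain subunits were higher and 19 lower, and 1 of the ribosomal proteins was higher and 57 were lower. The shares of all genes under that scaling were 9.18% and 46.0%. The difference between these lists and the carriers was not tested.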

How the data were processed

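RNA-seq of flow-sorted splenic red pulp macrophages was used, 4 libraries 2 h after CLP and 4 libraries 2 h after sham surgery, grouped by sample title. Per the labels' protocols, libraries were made from total RNA with a stranded TruSeq kit and read on an Element AVITI. The authors deposited raw counts per Ensembl gene, 1 column per library. The submitters' processing notes name FastQC, STAR 2.7.10b, featureCounts, DESeq2 and mm39, without roles. Annotation release and strand setting: not given in the sources used here.

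Symbols, exon lengths and overlaps came from GENCODE M21, an annotation of an older build; 52081 IDs had a symbol and 3333 had none. Counts were tested with edgeR 4.0.16 (R 4.3.3): filterByExpr (14004 genes), TMM, robust quasi-likelihood F-test on the 2 groups, Benjamini-Hochberg adjustment over all genes, threshold 0.05. Each SE was derived from the fold change and its F statistic. Common biological coefficient of variation was 0.182. No 2 libraries within CLP or sham were alike to within sampling noise (chi-square over degrees of freedom at least 8.99). The edgeR step was tested on simulated data.

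1 of the carriers enters the counts but is not reported here by name. The carriers, lists and pairs were chosen with earlier results of these data known. Values in every library are given for the iron carriers, the 8 highest and 8 lowest called carriers, and the 6 most abundant per length, and both genes of each pair at the smallest exact p. From each list of other genes the rule took 2 called genes with the largest change (mean of at least 5 CPM) plus the gene of highest level. Alternatives were DESeq2 1.42.0, its size factors, limma-voom (limma 3.58.1), library totals, 2 other filters, a replicate block, each library left out, and a minimum of 50 counts for the carriers.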

Additional observations from a re-analysis of the deposited data

Results flagged for a closer look

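In groups of 4 libraries a single value far from the other 3 was looked for in the 41 carriers and the 9 pair ratios. Chance alone would mark about 1 in 20 of the 100 groups examined, and 4 were marked. Slc25a38 was at 26.8 CPM in Sham replicate 4 against 12.8 to 13.8 CPM in the other sham libraries. Slc25a21 was at 5.06 CPM in the same library against 0.757 to 1.12 CPM. That library also had the highest erythroid and dividing cell marker sums, 1852 and 821 CPM, and their part in these values was not tested. Slc25a17 was at 28.9 CPM in CLP replicate 2 against 27.5 to 27.6 CPM in the other CLP libraries, a small gap within a tight group. The log2 ratio of Slc25a12 to Slc25a13 was 3.98 in Sham replicate 3 against 4.23 to 4.27 in the other sham libraries.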

How the results depend on the processing

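Of the 20 called carriers, 7 kept their call in all 15 alternative fits: Slc25a33 as higher and Slc25a14, Slc25a16, Slc25a32, Slc25a36, Slc25a45 and Slc25a46 as lower. Of the 9 higher carriers, 6 lost the call with library totals alone. Under that scaling 1 carrier was higher and 20 were lower, and of all genes 1286 (9.18%) were higher and 6435 (46.0%) lower. It called 122 of the 241 tested genes of the context lists, beside 55.1% of all genes. The signs of Slc25a5 (-0.0851), Slc25a4 (-0.181), Slc25a12 (-0.186), Slc25a20 (-0.23), Slc25a23 (-0.215), Slc25a24 (-0.268) and Slc25a51 (-0.0712) turned. With 1 library left out, 8 to 10 carriers were higher and 7 to 10 lower, the lowest count of lower carriers coming without CLP replicate 4 or Sham replicate 3. Log2 fold changes near 0 changed sign in some of these fits, with ranges of -0.0374 to 0.0392 for Slc25a44, -0.0412 to 0.173 for Slc25a24, -0.108 to 6.94e-05 for Slc25a11, -0.338 to 1.02 for Slc25a21 and -0.0364 to 0.295 for Slc25a23.
With DESeq2 size factors Slc25a44 was 0.0224 and Slc25a21 0.0173, and in the DESeq2 test 0.0213 and 0.029. In limma-voom Slc25a21 was 0.194. None of these sign changes came with a call, and the cause was not tested.

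Whether the replicate number pairs the libraries is not known, and neither labels nor data show a shared origin. Deviations from the group means correlated at 0.07, -0.07, 0.33 and -0.28 for numbers 1 to 4. For CLP and sham libraries of unlike number they correlated at -0.29 to 0.25. With a replicate block 10 carriers were higher and 8 lower, and Slc25a21 turned to 0.28. That fit called Slc25a51 higher (adjusted p = 0.0254) and no longer called Slc25a22 (0.0524), Slc25a38 (0.0920) or Slc25a43 (0.0604). Depth limits Slc25a2, Slc25a14, Slc25a29 and Slc25a47, which were under 10 counts in 1 or 2 libraries.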
